A study of Arabidopsis thaliana with 12 samples.

Results

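The ribosomal protein genes of Arabidopsis thaliana seedlings were compared across 4 genotypes. Members were taken by name, as the loci whose gene name in the deposited tables was RPL (large subunit) or RPS (small subunit), a protein number, an optional A that is part of the protein's name, and a paralogue letter from A to F. Of the 20869 genes with a value, 200 met this rule, 117 with large-subunit and 83 with small-subunit names. Their 200 loci carried 174 symbols, because 44 loci shared a symbol with another locus, so the locus is given where a symbol is ambiguous. A level of at least 1 FPKM (sequenced fragments scaled to transcript length and library size, so a level per length) in at least 3 libraries was required for testing, and 199 members met it. The exception was RPS23A, listed at 4.34 FPKM in smxl5-1 replicate 1 and at 0 in every other library.

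The name rule did not select cytosolic proteins alone. RPL12A (AT3G27830), RPL12C (AT3G27850) and RPL3A are named by RefSeq as proteins of plastid ribosomes, and RPL3B also belongs to an organelle ribosome. These 4 genes were kept as members in the counts and left out of the families. The other 196 members, called cytosolic here by name only, formed 74 families: 34 had 2 loci, 28 had 3, 8 had 4, 2 had 5 and 2 had 1. A family is the loci under the name rule for 1 protein, so a paralogue named otherwise is not counted. In the S15a family, RPS15AB and RPS15AE had 92.2% protein identity to each other and 51.5 to 53.8% to the other copies. Which ribosome RPS15AB and RPS15AE belong to was not checked.

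The libraries were made from poly-A RNA of whole 7-day-old seedlings of the Columbia background, raised on plates at 21 °C with 12 h of light and 12 h of darkness. There were 3 libraries each of the smxl5-1 single mutant, the smxl4-1 smxl5-1 double mutant, the smax1-2 single mutant and wild type (WT), and 15 seedlings were pooled for each library. SMXL4, SMXL5 and SMAX1 are related nuclear proteins: SMXL4 and SMXL5 are needed for phloem formation, and SMAX1 is a repressor that is removed in karrikin signalling. The study asked which genes depend on SMXL4 and SMXL5 in comparison with SMAX1. The kind of mutation in each allele is not given in the sources used here, and every mutant was represented by a single allele or allele combination.

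The cytosolic ribosome consists of a small subunit, which reads the mRNA, and a large subunit, which joins amino acids, and nearly every ribosomal protein is present as a single copy in each ribosome. The proteins are therefore needed in matched amounts. Plants keep several expressed gene copies for most of them, and these genes are most active in growing and dividing tissue. Their promoters are known for the telo box, a short repeat resembling the telomere, and for site II elements, bound by TCP transcription factors, which are also found in genes of the cell cycle.

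Promoter windows from 250 bases before to 50 bases after the annotated start were read from the TAIR10.1 RefSeq genome and searched on both strands for AAACCCTA (telo box; TAGGGTTT on the other strand) and for TGGGCC or TGGGCT (site II core; GGCCCA or AGCCCA on the other strand). Cores that overlap each other were each counted. Of the 196 cytosolic members, 97 (49.5%) held a telo box, against 6.22% of all 27443 protein-coding promoters. A site II core was held by 151 (77.0%), against 21.7% of all promoters, and 129 (65.8%) held at least 2, against 13.7%. Both elements were present in 80 members (40.8%), against 2.20% of all promoters, and neither in 28 (14.3%), against 74.3%. Site II cores lay at a median of 46 bases before the start and telo boxes at a median of 2 bases after it. Large-subunit promoters held a site II core in 82.3% of cases and small-subunit promoters in 69.9%.

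The 120 bases before the annotated start are shown for the most abundant member in WT, for the paralogues of 2 families with a wide gap between copies (S8 and S9), and for an abundant member without either element. They are written on the gene's own strand, and capitals mark telo boxes and site II cores. RPL14B lies at chr4:13595253-13595372 on the minus strand, RPS8A at chr5:6853107-6853226 on the minus strand and RPS8B at chr5:23903768-23903887 on the minus strand. RPS9B lies at chr5:4936430-4936549 on the minus strand, RPS9C at chr5:15949790-15949909 on the plus strand and RPL40B (AT3G52590) at chr3:19505259-19505378 on the plus strand.
RPL14B: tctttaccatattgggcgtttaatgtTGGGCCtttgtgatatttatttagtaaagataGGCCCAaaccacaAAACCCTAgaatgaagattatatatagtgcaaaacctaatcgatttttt
RPS8A: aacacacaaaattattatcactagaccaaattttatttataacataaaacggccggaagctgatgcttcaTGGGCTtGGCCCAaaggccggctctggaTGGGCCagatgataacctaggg
RPS8B: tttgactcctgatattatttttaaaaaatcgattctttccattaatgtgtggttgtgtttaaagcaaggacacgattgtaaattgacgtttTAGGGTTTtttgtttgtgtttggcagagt
RPS9B: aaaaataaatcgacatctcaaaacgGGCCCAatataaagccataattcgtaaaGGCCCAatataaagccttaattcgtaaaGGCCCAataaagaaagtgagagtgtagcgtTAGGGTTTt
RPS9C: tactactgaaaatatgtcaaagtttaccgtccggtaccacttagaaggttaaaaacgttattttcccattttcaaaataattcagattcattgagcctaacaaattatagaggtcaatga
RPL40B (AT3G52590): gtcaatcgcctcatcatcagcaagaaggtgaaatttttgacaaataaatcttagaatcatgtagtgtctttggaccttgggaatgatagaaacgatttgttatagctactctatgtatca
In these windows RPL14B showed 1 telo box and 2 site II cores, RPS8A 3 site II cores and RPS9B 3 site II cores and 1 telo box. The low paralogue RPS8B showed 1 telo box and no site II core, and RPS9C showed neither element. The longer window used for the counts added a telo box to RPS8A, a site II core to RPS9B, for 4 in all, and 2 site II cores to RPS9C. RPL40B (AT3G52590), which encodes ubiquitin fused to L40, showed neither element and was still among the 8 most abundant members. A match describes the letters only, and no match says only that they are not in the window.

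**Figure D1:**
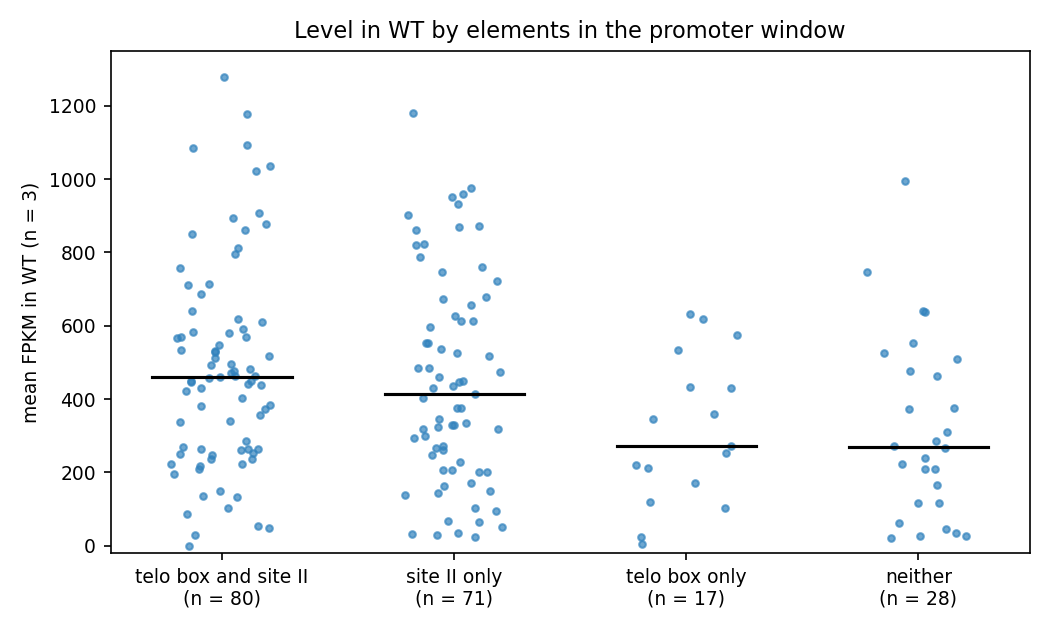
Mean FPKM in WT (n = 3 libraries, vertical axis) of the 196 cytosolic members by the elements in their promoter window. Points are genes and lines are medians, which were 459 FPKM with both elements, 413 with site II only, 273 with the telo box only and 269 with neither, and the 4 classes overlapped widely.

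By promoter class, the median level in WT was 459 FPKM for the 80 members with both elements and 413 FPKM for the 71 with site II only. It was 273 FPKM for the 17 members with a telo box only and 269 FPKM for the 28 with neither. The classes overlapped: their quartiles were 263 and 595 FPKM with both elements, and 116 and 486 FPKM with neither. Within the 72 families of at least 2 loci, the most abundant paralogue held a site II core in 59 and the least abundant in 51. The telo box ran the other way, in 33 of the most abundant and 39 of the least abundant paralogues. These are descriptions of genes that share ancestry and were not tested.

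The deposited values were FPKM of assembled transcript pieces without read counts, so the depth is unknown, and the authors' confidence bounds stood at a median of 3.1 to 3.6% on either side of a member's value. Between 82.2% and 88.0% of the members' pieces in a library fully matched a reference transcript. None of the genes named in the genotypes was called lower than in WT in the libraries labelled as mutants for it. SMAX1 stood at 15.1 to 18.2 FPKM in smax1-2 and 21.3 to 22.5 FPKM in WT, a log2 difference of −0.35 that limma did not call. SMXL5 was listed at 40.0 to 50.6 FPKM in the libraries labelled smxl5-1, 9.0 to 18.2 in those labelled smxl4-1 smxl5-1 and 3.47 to 5.18 in WT. It was called higher than in WT in both, with log2 differences of 3.06 in smxl5-1 and 1.20 in smxl4-1 smxl5-1 (limma Benjamini-Hochberg adjusted p of 0.000464 and 0.0467), which runs against the labels read as a loss of transcript; neither was called when FPKM were summed without the length correction (adjusted p of 0.219 and 0.311). SMXL4 was listed at 2.75 to 4.85 FPKM in smxl4-1 smxl5-1 and at 1.81 to 3.01 FPKM in WT. Where each mutation lies in its gene is not known here, so these levels do not check the labels.

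Library by library, the summed members took 7.03 to 9.92% of all gene FPKM. The share was 9.89, 7.03 and 9.92% in smxl5-1, 7.50, 9.71 and 9.61% in smxl4-1 smxl5-1, 9.03, 9.11 and 9.44% in smax1-2, and 7.82, 9.05 and 9.08% in WT. Thus 3 libraries were low, smxl5-1 replicate 2, smxl4-1 smxl5-1 replicate 1 and WT replicate 1, and they belonged to 3 different genotypes. Which libraries were low depended on the length correction: when the pieces' FPKM were summed without it, the share was 6.07, 6.31 and 7.45% in smxl5-1, 5.92, 5.25 and 7.14% in smxl4-1 smxl5-1, 6.38, 6.47 and 6.29% in smax1-2, and 6.52, 7.51 and 7.19% in WT. In that sum every smax1-2 library lay below every WT library. With the length correction, the means were 8.94 ± 1.66% in smxl5-1, 8.94 ± 1.25% in smxl4-1 smxl5-1, 9.19 ± 0.218% in smax1-2 and 8.65 ± 0.721% in WT (SD, n = 3 each). An exact permutation test over all 369600 assignments of the libraries to 4 groups gave p = 0.974. Exact two-sided permutation tests of each mutant against WT gave p = 1 for smxl5-1, p = 0.6 for smxl4-1 smxl5-1 and p = 0.3 for smax1-2, where 3 against 3 cannot go below 0.1.

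Of the low libraries, smxl5-1 replicate 2 and smxl4-1 smxl5-1 replicate 1 also stood apart in other measures. Across all transcript pieces, the fully matching share was 48.1% in smxl5-1 replicate 2 and 46.7% in smxl4-1 smxl5-1 replicate 1, the highest of the series, against 32.8 to 43.7% in the others. The summed level of 10 marker genes of dividing cells, all of them with a value, was 106 FPKM in smxl5-1 replicate 2, 128 in smxl4-1 smxl5-1 replicate 1 and 148 in WT replicate 1. In the other libraries it was 148 to 155 FPKM in smxl5-1, 171 to 183 in smxl4-1 smxl5-1, 185 to 192 in smax1-2 and 163 to 169 in WT. The root markers summed to 3287 FPKM in smxl5-1 replicate 2, against 1668 and 2170 FPKM in the other smxl5-1 libraries, 1611, 1302 and 1353 in smxl4-1 smxl5-1, 1870 to 2072 in smax1-2 and 1911 to 2199 FPKM in WT. All smxl4-1 smxl5-1 sums were thus below those of WT, and most of each sum was PYK10. By gene the direction was mixed: over 6 tested root markers the median log2 difference of smxl4-1 smxl5-1 from WT was 0.12. It ran from −0.56 to 0.35, and all genes had a median of 0.07. PLT1, which defines the root stem cell niche, was listed at 0 in several libraries. The photosynthetic markers summed to 40476 to 45135 FPKM in smxl5-1, 46873 to 50839 in smxl4-1 smxl5-1, 45910 to 51032 in smax1-2 and 44154 to 50050 in WT. The part of these differences in the members' share was not tested, and in RNA from whole seedlings fewer dividing cells and less RNA per cell cannot be told apart.

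Without the 2 libraries of highest matching share, a choice made after seeing the data that also removes 2 of the 3 lowest shares, the exact permutation test over the 4 groups gave p = 0.0338. The remaining shares were then 9.89 and 9.92% in smxl5-1, 9.71 and 9.61% in smxl4-1 smxl5-1, 9.03 to 9.44% in smax1-2 and 7.82 to 9.08% in WT. The balance between the subunits moved little: the summed large-subunit members stood at 1.67 times the small-subunit members in smxl5-1, 1.63 in smxl4-1 smxl5-1, 1.58 in smax1-2 and 1.61 in WT (means, n = 3), and the exact permutation test over the 4 groups gave p = 0.137.

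**Figure D2:**
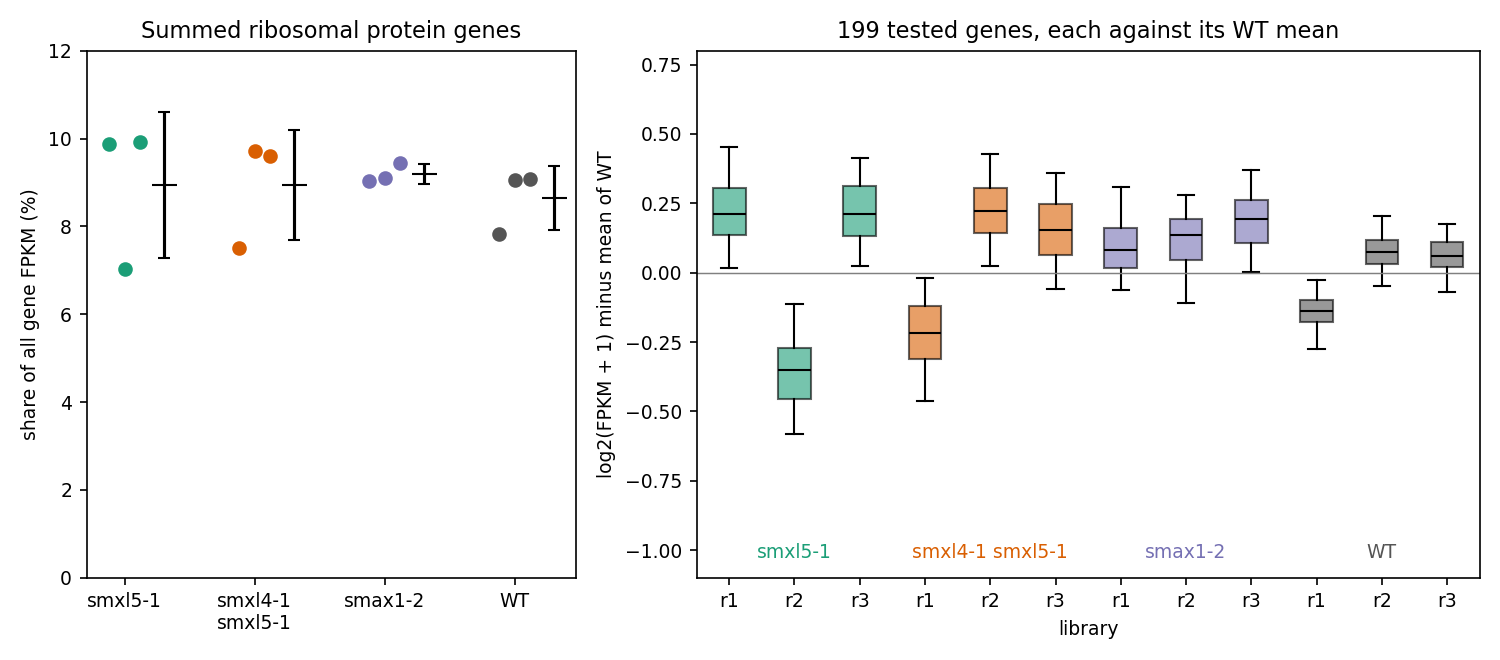
Left, share of all gene FPKM taken by the 200 members in each of 12 libraries (points, percent), with the mean and SD of each genotype (n = 3). Right, log2(FPKM + 1) of the 199 tested members minus each gene's WT mean, by library (boxes are quartiles, whiskers the 10th and 90th percentiles): smxl5-1 replicate 2 and smxl4-1 smxl5-1 replicate 1 sit below 0 with medians of −0.35 and −0.22, and the other libraries of those genotypes sit above it at 0.16 to 0.22.

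In WT the members were among the most abundant transcripts of the seedling. Their median was 427 FPKM, against 11.3 FPKM over all tested genes, and 124 of the 500 most abundant genes (24.8%) and 166 of the 1000 most abundant were members. Of the 200, 178 exceeded 100 FPKM, 73 exceeded 500 FPKM and 15 were under 50 FPKM. Large-subunit members had a median of 436 FPKM and small-subunit members 372 FPKM. The SD between libraries of a genotype had a median of 0.25 on the log2(FPKM + 1) scale.

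The 8 most abundant members in WT encoded proteins of both subunits. RPL14B, a large-subunit protein, stood at 1261, 854 and 1284 FPKM in smxl5-1, 893, 1528 and 1246 in smxl4-1 smxl5-1, 1094, 1159 and 1187 in smax1-2, and 1373, 1260 and 1203 in WT. All 4 genotypes overlapped for this gene except that every smax1-2 library was below every WT library. RPS8A, a small-subunit protein, stood at 1073, 734 and 1094 FPKM in smxl5-1, 947, 1020 and 1041 in smxl4-1 smxl5-1, 1008, 1121 and 1069 in smax1-2, and 862, 1419 and 976 in WT, and its genotypes overlapped throughout. In WT, RPL37AC averaged 1180 ± 114 FPKM, RPL41E (AT1G56045) 1178 ± 309, RPS23B 1092 ± 91.7, RPL23C (AT3G04400) 1036 ± 138, RPL41E (AT3G11120) 1021 ± 300 and RPL40B (AT3G52590) 996 ± 155 FPKM (SD, n = 3). S23 lies at the decoding centre of the small subunit, and L41 is a very short basic peptide. The neighbours in this order differed by less than the larger of their SDs, so the order among these 8 is not resolved.

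Summed over paralogues, the proteins were supplied by mRNA at closely similar levels. The 74 family sums in WT had a median of 1062 FPKM, and 72 of them (97.3%) lay within 2-fold of it, whereas 132 of the 196 single genes (67.3%) lay within 2-fold of the gene median of 418 FPKM. The 10th and 90th percentiles were 819 and 1506 FPKM for families, a 1.84-fold range, and 91.7 and 855 FPKM for genes, a 9.33-fold range. The lowest sums in WT, over loci under the name rule, were those of L5, which binds 5S rRNA and had 1 such locus, at 464 ± 43.9 FPKM, S2 at 547 ± 45.1 and L23a at 603 ± 65.5 FPKM. The highest were L41 at 4456 ± 612, S29 at 1850 ± 205 and L21 at 1687 ± 164 FPKM (SD, n = 3). L41 transcripts are short, and its sum was 9433 FPKM when pieces longer than the reference were counted in full and 3953 FPKM when only pieces matching or contained in a reference transcript were used. A sum over several genes averages out differences between them, and the narrower range of the sums was not tested against that.

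**Figure D3:**
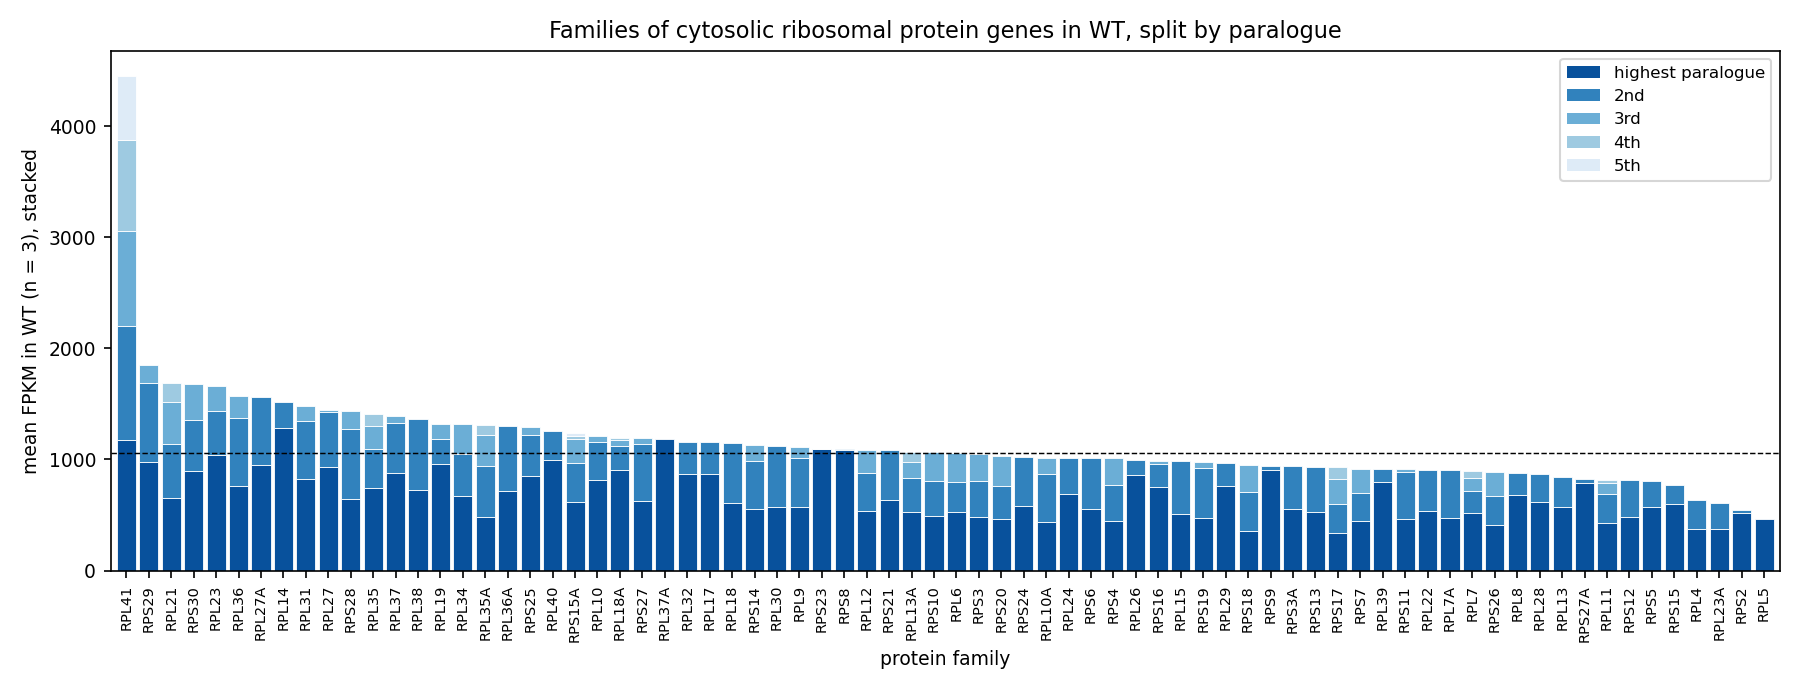
Mean FPKM in WT (n = 3 libraries) of the 74 families of cytosolic ribosomal proteins, stacked by paralogue from the most abundant (dark) to the least (light), families ordered by their sum. The dashed line is the median sum of 1062 FPKM, and 72 families lie within 2-fold of it while the number and size of their paralogues differ.

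Within families the paralogues were unequal. The most abundant paralogue supplied a median of 56.0% of its family's FPKM in WT, and it exceeded the least abundant by a median of 3.27-fold. In S23, RPS23B supplied all of the family's FPKM in WT, where RPS23A was listed at 0. Among families with at least 2 members at a mean of 5 FPKM in WT, the highest share of a leading copy was in S8: RPS8A supplied 99.4% in WT, and RPS8B was listed at 4.52, 4.33 and 4.62 FPKM in smxl5-1, 2.98, 3.97 and 3.81 in smxl4-1 smxl5-1, 5.18, 4.23 and 4.53 in smax1-2, and 5.16, 3.88 and 9.17 in WT. In the S9 family RPS9B supplied 96.4%, with 907 ± 59.4 FPKM in WT against 34 ± 3.44 FPKM for RPS9C. RPS27AC, a fusion of ubiquitin with S27a, supplied 96.2% of its family, with 788 ± 160 FPKM against 31.3 ± 10.3 FPKM for RPS27AA (SD, n = 3).

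The lowest shares of a leading copy were found in families with 4 or 5 loci, where the share can go lower than in a family of 2. The 5 L41 loci were led by RPL41E (AT1G56045) at 26.4% of the family, the 4 S17 loci by RPS17B at 36.2% and the 4 L35a loci by RPL35AB at 36.9%. RPS17B led in all 12 libraries, RPL35AB in 10 and RPL41E (AT1G56045) in 8. By the fold between the most and least abundant copy, the L35a family was not even, at 5.07, whereas the 2 copies of L30 stood at 1.05. The same paralogue led in all 12 libraries in 53 of the 72 families with several loci, and the full order of paralogues was the same in all 12 in 49.

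Most paralogues encode closely similar proteins. Over 186 pairs within families the median protein identity was 94.4% and the lowest 43.7%, 33 pairs were identical and 88 were at 95% or above, while coding sequences had a median identity of 84.7%. RPS8A and RPS8B were among the divergent pairs, at 82.9% protein and 74.7% coding identity, and RPS9B and RPS9C were at 88.4% and 80.4%. Coding sequences of 9 of these pairs, with 18 members, shared a run of at least 100 bases, so the division of reads between them is uncertain. The same holds for the plastid pair RPL12A (AT3G27830) and RPL12C (AT3G27850), which is not among the 186. This pair shared a run of 255 bases, at 91.5% coding identity. In addition, 58 members overlap another annotated gene, 19 on the same strand and 44 on the opposite one, and whether the libraries kept strand is not given in the sources used here.

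No member passed the test between any of the genotypes compared. In limma's moderated test on log2(FPKM + 1) over all 19656 tested genes with Benjamini-Hochberg adjustment, 0 of 199 members were called in each of the 5 comparisons, and 0 were called under any of the 18 settings of the fit tried for each. Over all genes the same rule called 0.351% for smxl5-1 against WT, 1.13% for smxl4-1 smxl5-1 against WT, 0.0356% for smax1-2 against WT, 2.99% for smxl4-1 smxl5-1 against smxl5-1 and 1.55% for smxl4-1 smxl5-1 against smax1-2. A count of 0 among 199 members is to be read against these low shares. At an unadjusted p under 0.05 the members numbered 2 (1.01%) for smxl5-1 against WT, 3 (1.51%) for smxl4-1 smxl5-1 against WT and 4 (2.01%) for smax1-2 against WT, where all genes gave 12.2, 11.9 and 6.77%. They numbered 2 (1.01%) for smxl4-1 smxl5-1 against smxl5-1 and 0 for smxl4-1 smxl5-1 against smax1-2, where all genes gave 17.1 and 11.9%. The comparisons share libraries, so their values are given side by side and not as separate evidence. Members moved together by library as well, as given below, so the members within a count are not separate evidence either.

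The intervals bound what could have been missed. A member's log2 difference had a median standard error of 0.19 and a 95% interval of ± 0.42 at the median. The whole interval lay within a log2 difference of 1 in either direction for 180 members in smxl5-1 against WT, 183 in smxl4-1 smxl5-1 against WT and 180 in smax1-2 against WT. It lay within 0.5 for 103, 97 and 63 members in the same order of comparisons. Smaller changes of single genes were thus not detectable with 3 libraries a genotype.

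Taken over the members, the differences were small and narrow. The median log2 difference was 0.02 for smxl5-1 against WT, where all genes had 0.07, and 0.06 for smxl4-1 smxl5-1 against WT, where all genes had 0.07. The central 90% of members ran from −0.21 to 0.33 in smxl5-1 against WT, while that of all genes ran from −0.62 to 0.87. The 2 sets differ in level, at a median of 427 and 11.3 FPKM in WT, and genes of like level were not compared. Both median log2 differences depended on the low libraries. Without smxl5-1 replicate 2 the first was 0.22, without smxl5-1 replicate 1 it was −0.07 and without WT replicate 1 it was −0.04. Without smxl4-1 smxl5-1 replicate 1 the other was 0.19, and without smxl4-1 smxl5-1 replicate 2 it was −0.02. Members whose 3 mutant libraries all lay above WT numbered 2 for smxl5-1, where 13.6% of all genes did so, and 1 for smxl4-1 smxl5-1, where 12.5% did. Those that lay below numbered 3 for smxl5-1, against 5.37% of all genes, and 0 for smxl4-1 smxl5-1, against 6.61%.

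In smax1-2 most members stood slightly above WT, and none was called. The median log2 difference from WT was 0.14, where all genes had 0.09, and 175 of 199 members (87.9%) were above 0, against 66.7% of all genes. All 3 smax1-2 libraries lay above all 3 WT libraries for 48 members (24.1%), against 12.9% of all genes, and below them for 1 member, RPL14B, against 4.43%. The median stayed above 0 under all 18 alternatives, and it was 0.07 without WT replicate 1, a library of low share. Its lowest value, 0.053, came from an alternative that left out no single library. The summed share did not keep this direction. Without the length correction it was 6.29 to 6.47% in smax1-2 and 6.52 to 7.51% in WT. Members also moved together by library, with 180 of 199 below their WT mean in WT replicate 1, so these counts are not separate evidence. By library, the exact permutation test of the share for smax1-2 against WT gave p = 0.3. Markers of dividing cells, such as KNOLLE and the B-type cyclins, were higher on average too, with a median log2 difference of 0.29 over 10 genes and summed levels of 185 to 192 FPKM in smax1-2 and 148 to 169 FPKM in WT, and none of them was called. CDKB1;1 was listed at 0 in smax1-2 replicate 2. Their part in the members' values was not tested.

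Against the other mutants, the smxl4-1 smxl5-1 double mutant gave a median log2 difference of 0.03 from smxl5-1, where all genes had −0.01, and of −0.07 from smax1-2, where all genes had −0.03. Without smxl4-1 smxl5-1 replicate 1 the median against smax1-2 was 0.05. Against smxl5-1, 0 members lay wholly above and 2 wholly below, where all genes gave 9.35 and 11.0%. Against smax1-2, 0 members lay wholly above and 6 wholly below, where all genes gave 8.16 and 9.77%. The limit from members that move together by library holds for these counts too.

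**Figure D4:**
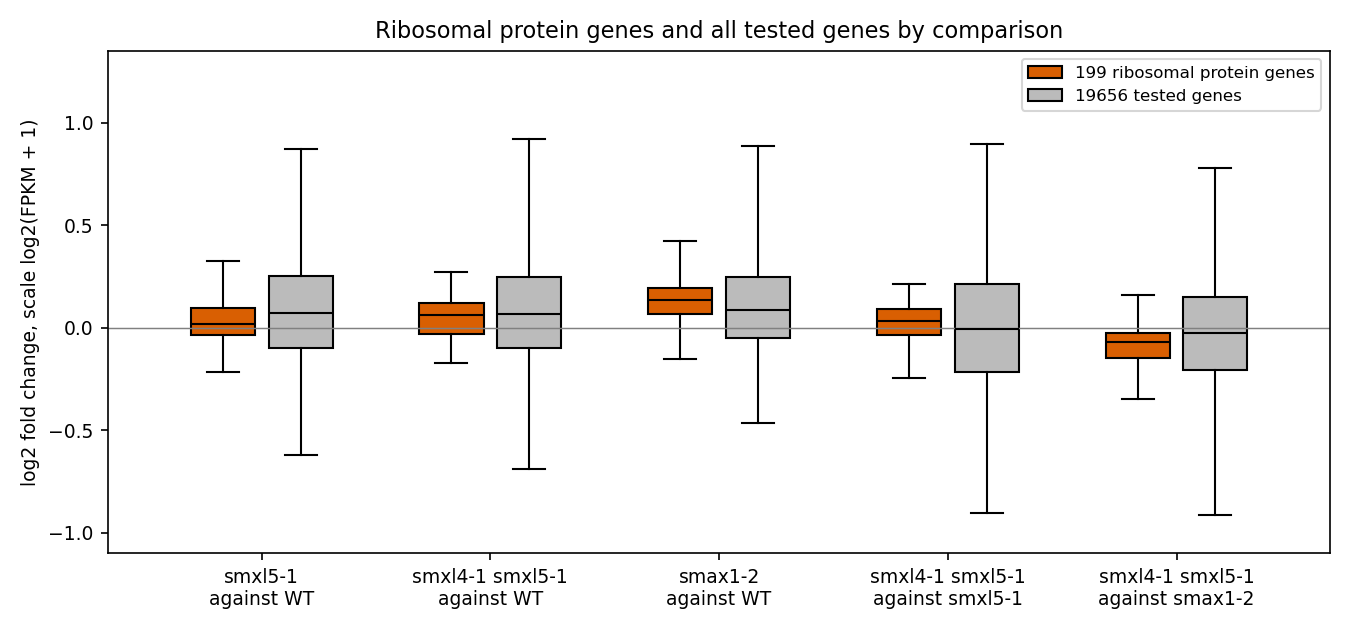
Log2 fold changes on the log2(FPKM + 1) scale of the 199 tested members and of all 19656 tested genes in 5 comparisons (box, quartiles; whiskers, 5th and 95th percentiles; line, median). The members' boxes are narrower than those of all genes, and their medians lie between −0.07 and 0.14.

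The members with the smallest p in each comparison are given as values, since none was called. In smxl5-1 against WT they included 3 genes of the plastid ribosome among the first 4. RPL12A (AT3G27830), whose product sits in the stalk of the plastid ribosome, stood at 767, 674 and 796 FPKM in smxl5-1, against 930, 929 and 841 FPKM in WT. The groups did not overlap, and the log2 difference was −0.27 ± 0.10 (SE; limma Benjamini-Hochberg adjusted p = 0.291). RPL3A, a plastid large-subunit protein, stood at 529, 429 and 491 FPKM in smxl5-1, against 559, 584 and 531 FPKM in WT, again without overlap, at −0.21 (limma adjusted p = 0.434 after Benjamini-Hochberg). RPL12C (AT3G27850), the next in order, stood at 773, 649 and 806 FPKM in smxl5-1, against 846, 917 and 825 FPKM in WT. RPL12A (AT3G27830) and RPL12C (AT3G27850) share a coding run of 255 bases. The division of reads between them is uncertain, so they are not separate measurements.

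RPL27A, the low copy of its large-subunit family, was the member nearest to a shared pattern. It stood at 26.7, 27.9 and 34.7 FPKM in smxl5-1, 28, 25.4 and 34.3 in smxl4-1 smxl5-1, 25.2, 30.6 and 33 in smax1-2, and 16.0, 20.8 and 26.4 FPKM in WT. Only the smxl5-1 libraries were all above WT. The log2 difference from WT was 0.50, 0.47 and 0.49 in that order of mutants (SE 0.19), with limma adjusted p of 0.317, 0.351 and 0.698 after Benjamini-Hochberg adjustment. These differences rest on the same WT libraries.

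RPL30C, a large-subunit protein, stood at 821, 499 and 784 FPKM in smxl5-1, 758, 753 and 811 in smxl4-1 smxl5-1, 837, 723 and 691 in smax1-2, and 430, 648 and 565 FPKM in WT. The double mutant and smax1-2 lay above WT without overlap, and smxl5-1 did not. The double mutant's log2 difference was 0.52 ± 0.20 (SE; limma Benjamini-Hochberg adjusted p = 0.329). It became −0.33 when only pieces matching or contained in a reference transcript were used. RPS8B, at 2.98 to 3.97 FPKM in smxl4-1 smxl5-1 and 3.88 to 9.17 FPKM in WT, gave −0.56 ± 0.24 (SE; limma Benjamini-Hochberg adjusted p = 0.398), and its groups overlapped.

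RPL7A, a low copy placed by name in the large-subunit L7 family, has 43.7 to 44.9% protein identity to RPL7B, RPL7C and RPL7D. In smax1-2 it stood at 81.2, 98.7 and 80.7 FPKM, against 57.9, 63.2 and 69.8 FPKM in WT. The groups did not overlap, and the log2 difference was 0.44 ± 0.15 (SE; limma Benjamini-Hochberg adjusted p = 0.658). RPS21C, a small-subunit protein, stood at 1087, 948 and 693 FPKM in smax1-2 and 340, 403 and 608 FPKM in WT, without overlap. Its log2 difference was 1.03 ± 0.41 (SE; limma Benjamini-Hochberg adjusted p = 0.716). It spread widely in the other mutants too, with 764, 446 and 453 FPKM in smxl5-1 libraries, and with 292, 966 and 659 in smxl4-1 smxl5-1.

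Between the mutants, RPL18AA (AT1G29970) stood at 22.1, 23.5 and 25.1 FPKM in smxl4-1 smxl5-1 and 26.1, 30.2 and 27.5 FPKM in smxl5-1, without overlap. The log2 difference was −0.24 ± 0.09 (SE; limma Benjamini-Hochberg adjusted p = 0.189). This locus overlaps RPL18AA (AT1G29965) on the same strand, so the division of reads between them is uncertain. RPL23C (AT2G33370) stood at 161, 232 and 212 FPKM in smxl4-1 smxl5-1 and 333, 229 and 394 FPKM in smxl5-1, with overlap, at −0.64 ± 0.26 (SE; limma Benjamini-Hochberg adjusted p = 0.241).

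Copies of L41 made up most of the rest. RPL41E (AT3G56020) stood at 400, 629 and 812 FPKM in smxl4-1 smxl5-1, 1091, 738 and 953 in smxl5-1 and 1167, 803 and 682 in smax1-2. The double mutant overlapped both other mutants, with log2 differences of −0.63 from smxl5-1 and −0.55 from smax1-2 (limma Benjamini-Hochberg adjusted p of 0.318 and 0.534). RPL41E (AT1G56045) stood at 959, 2138 and 1876 FPKM in smxl4-1 smxl5-1 and 1383, 682 and 1069 FPKM in smax1-2. It overlapped too, at 0.64 ± 0.38 (SE; limma Benjamini-Hochberg adjusted p = 0.577). RPL35C stood at 86.1, 119 and 107 FPKM in smxl4-1 smxl5-1 and 112, 142 and 155 FPKM in smax1-2, at −0.39 ± 0.22 (SE; limma Benjamini-Hochberg adjusted p = 0.567).

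The mix of paralogues was compared next, since a family's total can stay level while its members change. The largest difference between a mutant's mean share and the WT mean was a median of 2.35 percentage points over the 72 families, and it reached 5 points in 14, some of which hold a listed 0. In S21, RPS21C supplied 46.5 ± 6.74% of the family in smxl5-1, 48.9 ± 11.2% in smxl4-1 smxl5-1, 59.4 ± 6.64% in smax1-2 and 40.8 ± 5.99% in WT (SD, n = 3). The difference of 18.5 points between smax1-2 and WT was the widest in a family without a listed 0. RPS21B led in 6 of the 12 libraries. RPS21B and RPS21C share 93.9% of their protein sequence and no coding run of 100 bases.

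In L30, RPL30C supplied 54.1% in smxl5-1, 55.2% in smxl4-1 smxl5-1, 53.4% in smax1-2 and 48.5% in WT. By single libraries, RPL30C led in 10 of 12, and RPL30B led in WT replicates 1 and 3. In L41, RPL41E (AT1G56045) supplied 30.1% in smxl5-1, 36.3% in smxl4-1 smxl5-1, 23.7% in smax1-2 and 26.2% in WT. RPL23C (AT2G33370) supplied 18.4% of L23 in smxl5-1, 12.5% in smxl4-1 smxl5-1, 14.4% in smax1-2 and 13.5% in WT. In S6, whose protein is the target of S6 kinase, RPS6A supplied 55.9% in smxl5-1, 55.4% in smxl4-1 smxl5-1, 55.4% in smax1-2 and 54.6% in WT, differences of the order of 1 point. In S28, RPS28C had the highest mean in WT and led in 3 of the 12 libraries. RPS14C stood at 673 FPKM in smxl4-1 smxl5-1 replicate 1 and at 97.7 to 178 FPKM in the other 11 libraries, so the S14 shares of that genotype rest on 1 library. Shares were not tested.

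**Figure D5:**
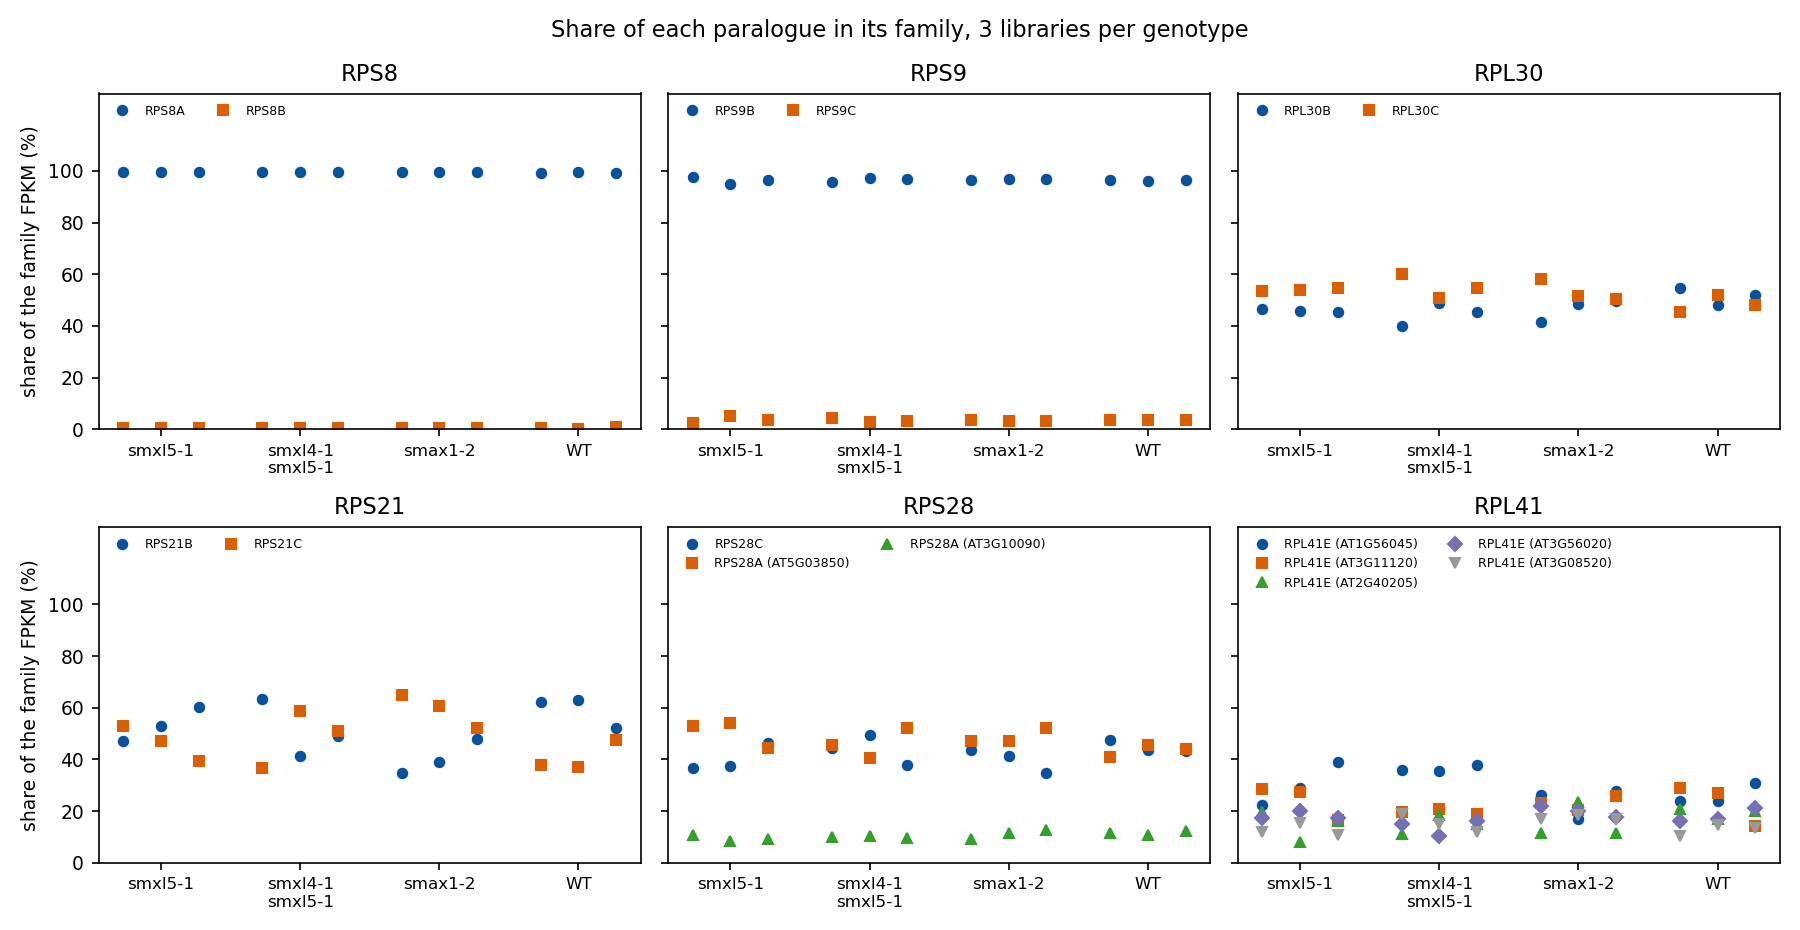
Share of each paralogue in the FPKM of its family (percent) in the 3 libraries of each genotype, for 6 families; each symbol is a locus. S8 and S9 keep the same leading copy in all 12 libraries, whereas the leading copy changes between libraries in L30, S21, S28 and L41.

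A few members were listed at 0 in single libraries, and these produced every log2 difference beyond 1 among the members except that of RPS21C. RPL18AB was listed at 0 in smax1-2 replicate 2 and at 659 to 1246 FPKM in the other 11 libraries. RPL21F (AT1G57860) was listed at 0 in smxl4-1 smxl5-1 replicate 1 and WT replicate 2 and at 228 to 347 FPKM elsewhere. In those same 2 libraries its neighbour AT1G57870, 141 bases away, was listed at 60.5 and 70.6 FPKM, against 9.15 to 22.1 FPKM in the other libraries. RPS17A was listed at 0 in smxl4-1 smxl5-1 replicate 1 and at 211 to 341 FPKM elsewhere. RPL11A was listed at 0 in smxl5-1 replicates 1 and 2, smxl4-1 smxl5-1 replicate 2 and WT replicate 1, and at 36.0 to 51.9 FPKM in the other 8.

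The remaining listed zeros were single libraries of RPL29B (smax1-2 replicate 2) and RPL19B (smxl4-1 smxl5-1 replicate 1). For these 2, as for RPL21F (AT1G57860), a neighbouring gene was higher than elsewhere in the series, AT3G06670 at 36.1 FPKM against 14.2 to 23.3 FPKM, and AT3G16785 at 39.6 FPKM against 0 to 20.5 FPKM. No such neighbour was seen for RPL18AB, where AT2G34470 had 55.9 FPKM in smax1-2 replicate 2 and up to 59.7 FPKM elsewhere, nor for RPS17A, where AT2G04378 had 39.9 FPKM in smxl4-1 smxl5-1 replicate 1 and up to 49.1 FPKM elsewhere. For RPL11A, AT2G42750 had 86.8 to 199 FPKM in the 4 libraries with the 0 and 89.6 to 191 FPKM elsewhere. In all, 193 members had a value in every library and 7 had a listed 0 in some libraries but not all. The cause of the zeros was not tested, and a listed 0 in these tables does not show an absent transcript.

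Genes of the same machinery outside the name rule were read from lists chosen with earlier results of these data known. Of 16 tested genes for stalk and other cytosolic ribosomal proteins, 0 were called in any comparison (limma; 0 also at an unadjusted p under 0.05), with median log2 differences from WT of 0.04 in smxl5-1, 0.05 in smxl4-1 smxl5-1 and 0.13 in smax1-2. Of 31 ribosome biogenesis genes, which process rRNA and assemble the subunits, 0 were called and 2, 1 and 4 were higher at an unadjusted limma p under 0.05 in the same order of mutants, where 12.2, 11.9 and 6.77% of all genes reached that p in either direction. Their medians were 0.10, 0.21 and 0.22. Of 25 tested translation factor genes and 7 TOR and S6 kinase genes, 0 were called. Against WT, 3, 1 and 2 of the factors and 0, 1 and 1 of the kinase genes were higher at an unadjusted p under 0.05, and 0 were lower, to be read against the same shares of all genes.

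The nuclear genes of plastid ribosomal proteins, which belong to a separate ribosome in the chloroplast, stood below WT in smxl5-1 as the 3 plastid genes above did. Beside those 3, 26 were tested. All 26 were below WT in smxl5-1, with a median log2 difference of −0.20 where all genes had 0.07, and 7 were lower at an unadjusted limma p under 0.05, which 12.2% of all genes reached in either direction, while 0 were called. Their summed level was 14649, 11411 and 14244 FPKM in smxl5-1, 12492, 15817 and 15266 in smxl4-1 smxl5-1, 15494, 14568 and 14987 in smax1-2, and 15472, 16143 and 15090 FPKM in WT. Every smxl5-1 library was below every WT library, and smxl5-1 replicate 2 was the lowest of the series. The 26 genes were read in the same libraries, so their shared direction is not 26 separate observations. Each of 3 genes was listed at 0 in a single library that enters these sums: PRPL10 in smxl5-1 replicate 1, where other libraries had 333 to 451 FPKM, PRPL5 in smxl4-1 smxl5-1 replicate 1 and PRPL24 in smax1-2 replicate 2. The medians were −0.09 in smxl4-1 smxl5-1 and −0.02 in smax1-2. Photosynthetic markers had a median log2 difference of −0.20 in smxl5-1 over 6 genes, and their part in these values was not tested.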

How the data were processed

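RNA from 12 seedling pools was sequenced. The authors deposited, for each library, a table of assembled transcript pieces compared with the reference annotation, with FPKM, FPKM confidence bounds, coverage (a signal), the percent of the major isoform, lengths and a class code. The tools named per the submitters' processing notes are TopHat2 2.0.14 and TAIR10; the sources used here name neither the assembler nor the alignment settings. Depth is unknown, and 3 libraries a group limit the precision.

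The class codes =, c, j, e and o covered 345442 of 353616 pieces, and these were used. A gene's value was the sum of FPKM times the smaller of piece and reference length over the reference length. The design named a count test first; with FPKM deposited, limma 3.58.1 in R 4.3.3 was fitted to log2(FPKM + 1), with a pseudocount of 1, over genes at 1 FPKM or more in at least 3 libraries, all 12 libraries in 1 fit of 4 groups. Benjamini-Hochberg adjustment ran over all tested genes, and the threshold was an adjusted p of 0.05. Fold changes on this scale understate changes of low genes. The fit was tested on simulated data. Coverage and the percent of the major isoform were read but enter no reported value. Same-numbered libraries did not vary together (correlations of −0.10 to 0.07), so numbers were not taken as pairs. Promoters, coding sequences and neighbours came from the TAIR10.1 RefSeq genome, whose annotation named all 200 members.

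Named genes were the 3 smallest p per comparison where fewer than 3 were called, the 8 highest in WT, the 3 most and least even families, the 4 largest SDs within groups, and members under the filter. Members and lists were chosen with earlier results of these data known. Others named, such as RPL30B and RPL12C, were chosen after their values were seen. Alternatives were other length corrections and class codes, scaling, pseudocount, filter, fits of 2 groups, a replicate block and libraries left out. Python 3.11.15, numpy 2.4.6, pandas 2.3.3, scipy 1.17.1, Biopython 1.88 and matplotlib 3.10.9 were used.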

Additional observations from a re-analysis of the deposited data

Results flagged for a closer look

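Pieces classed as lying within an intron enter none of the comparisons. Such a piece at RPS28A (AT5G03850), 50 bases long, was listed at 98892 FPKM in smax1-2 replicate 3, above the highest WT value at this gene of 5057 FPKM for a piece of 62 bases. Pieces of 59 to 72 bases at the same gene were listed at 10217 and 2546 FPKM in smxl4-1 smxl5-1 replicates 1 and 2 and at 8789 FPKM in smax1-2 replicate 2. Multiplied by its length in kilobases, the smax1-2 replicate 3 piece gives 4945, against 314 for the WT piece.

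The level of SMXL5 differed between mutants that carry the same smxl5-1 allele: it was lower in smxl4-1 smxl5-1 (9.0, 9.01 and 18.2 FPKM) than in smxl5-1 (42.4, 50.6 and 40.0 FPKM), with a log2 difference of −1.86 (limma Benjamini-Hochberg adjusted p = 0.00470). The level of SMAX1 differed between smxl4-1 smxl5-1 (32.1, 25 and 27.6 FPKM) and smax1-2 (18.2, 15.1 and 17.3 FPKM), with a log2 difference of 0.71 (limma Benjamini-Hochberg adjusted p = 0.0357). Neither difference was called when the pieces' FPKM were summed without a length correction (adjusted p of 0.777 and 0.677).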

How the results depend on the processing

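The 15 member results were picked for their small p in these data. The alternatives largely reuse the same libraries, so a kept direction is no separate support. No member was called in any comparison under any alternative, and 252 of the 255 alternative values of the 15 member results kept their direction. The exceptions came with pieces matching or contained in a reference transcript only: 0.047 for RPL12A (AT3G27830) in smxl5-1 against WT, −0.33 for RPL30C in smxl4-1 smxl5-1 against WT and −3.35 for RPL41E (AT1G56045) in smxl4-1 smxl5-1 against smax1-2; the cause was not tested.

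The exact permutation test of the share gave p from 0.428 to 1.000 when 1 library was left out. It gave 0.943 to 0.956 under other length corrections, class codes and quantile normalization. Median-of-ratios scaling cannot change a share within a library, so its p of 0.974 repeats the main result of this test. Without the 2 libraries of highest matching share, added after seeing the data, it gave 0.0338. With the plain sum of FPKM it gave 0.365, and the order of libraries within smxl5-1 and smxl4-1 smxl5-1 changed. Every smax1-2 library (6.29 to 6.47%) then lay below every WT library (6.52 to 7.51%). With the length correction smax1-2 had the higher mean, 9.19% against 8.65% in WT. Leaving out 1 library moved the members' median log2 difference over −0.07 to 0.22 (smxl5-1 against WT), −0.02 to 0.19 (smxl4-1 smxl5-1 against WT), 0.07 to 0.18 (smax1-2 against WT), −0.15 to 0.15 (smxl4-1 smxl5-1 against smxl5-1) and −0.16 to 0.05 (smxl4-1 smxl5-1 against smax1-2). Of 18 alternatives, 5, 2, 0, 4 and 2 gave the other sign in that order.

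Calls over all genes moved more, from 9 to 126, 58 to 350, 1 to 14, 69 to 1069 and 77 to 433 in the same order, where the values reported rest on 69, 223, 7, 588 and 304. With the replicate block they were 25, 125, 4, 225 and 153, with 0 members called. Of 18 same-numbered pairs of libraries, 0 correlated over 0.1, so the replicate numbers gave no basis for the block. The highest correlation between genotypes, 0.17, was that of smxl5-1 replicate 2 with smxl4-1 smxl5-1 replicate 1. A batch that does not follow the numbers was not tested. With 3 libraries a group and no read counts, changes well under the median interval of ± 0.42 were not detectable. Larger ones could also go uncalled after adjustment over all tested genes.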

Other observations

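Among the translation factor genes, TCTP1, a growth-related protein, was listed at 9768 FPKM in smxl4-1 smxl5-1 replicate 1 and at 1617 to 2150 FPKM in the other 11 libraries. It was singled out after its values were seen. EEF1A4, an elongation factor gene as abundant as the highest ribosomal protein genes, stood at 1128 to 1625 FPKM in smxl5-1, 1296 to 1481 in smxl4-1 smxl5-1, 1289 to 1554 in smax1-2 and 1209 to 1471 FPKM in WT, and all 4 genotypes overlapped. Its near-identical copies EEF1A1, EEF1A2 and EEF1A3 were listed at 0 in some libraries and at 370 to 453 FPKM in others, so levels of single copies are uncertain there.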
